A study of Mus musculus with 6 samples.

Results

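The genes described here build the antigen-presenting machinery of the major histocompatibility complex (MHC). They were taken from the deposited table by name, as every row whose symbol starts with H2- together with B2m, Cd74, Ciita, Tap1, Tap2, Tapbp and Nlrc5. This gave 37 of 17909 genes: 20 class I heavy chains, 10 class II chains, 6 partner genes, and H2-Ke6, which lies in the region and encodes a metabolic enzyme. Nlrc5 had no row in the table and was not analysed here. Of the 37 rows, 32 lay on chromosome 17 in the GENCODE annotation of GRCm38.

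The samples were bulk RNA libraries of cells sorted from mouse embryos of a mixed C57BL/6 and FVB background, in which the fate-mapping allele Csf1r-iCre marked progeny of erythro-myeloid progenitors (EMPs). All 6 groups carried this allele and received no treatment that the labels name. They were mast cell progenitors (MCPs) of the fetal liver at E11.5, MCPs of the limb at E11.5 and at E14.5, a skin library at E16.5 titled MCPs and described as mast cells, macrophages (MAC) of the fetal liver at E11.5, and EMPs of the fetal liver at E11.5. Each group was 1 library, so no difference below had a replicate check, a standard error or a p-value, and the labels do not say how many embryos were pooled. Levels are FPKM, fragments per kilobase of transcript scaled to the mapped fragments of the library, which allows genes to be compared within a library.

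Class I molecules display peptides from inside the cell on nearly all nucleated cells. A heavy chain pairs with beta-2-microglobulin, the B2m product, after the Tap1 and Tap2 pump has brought peptides into the endoplasmic reticulum and tapasin, the Tapbp product, has helped to load them. Class II molecules are pairs of an alpha and a beta chain that display peptides from endocytosed material, mainly on dendritic cells, B cells and activated macrophages. Their assembly uses the invariant chain Cd74 and the peptide editor H2-DM, which H2-O restrains, and their transcription is driven by Ciita. Class I transcription responds to NF-kappaB and interferon, and the class II promoters carry X and Y boxes. NF-Y binds the Y box.

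Upstream windows of 250 bases before the RefSeq transcript start (GRCm38.p6) are given for 5 genes that carry the results: the heavy chains H2-K1 and H2-D1, their shared light chain, and the class II chains H2-Aa and H2-Oa. Capitals mark matches on either strand to a kappaB-type motif (the longest run of capitals in H2-K1 and H2-D1), an interferon element (TTTCACTTC), a CRE core (TGACG) or the inverted CCAAT of the Y box (ATTGG).
H2-K1 (chr17:34000348-34000597, minus strand): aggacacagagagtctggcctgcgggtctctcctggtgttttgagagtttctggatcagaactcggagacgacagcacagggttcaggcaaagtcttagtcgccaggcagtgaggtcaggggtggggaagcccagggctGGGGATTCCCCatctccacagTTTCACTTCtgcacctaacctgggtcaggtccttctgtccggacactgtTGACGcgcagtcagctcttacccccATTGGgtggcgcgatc
H2-D1 (chr17:35262844-35263093, plus strand): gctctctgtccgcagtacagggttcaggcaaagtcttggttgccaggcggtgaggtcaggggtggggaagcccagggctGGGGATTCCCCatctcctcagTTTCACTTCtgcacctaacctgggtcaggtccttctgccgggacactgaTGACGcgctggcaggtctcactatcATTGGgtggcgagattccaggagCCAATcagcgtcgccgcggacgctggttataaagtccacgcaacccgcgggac
B2m (chr2:122147437-122147686, plus strand): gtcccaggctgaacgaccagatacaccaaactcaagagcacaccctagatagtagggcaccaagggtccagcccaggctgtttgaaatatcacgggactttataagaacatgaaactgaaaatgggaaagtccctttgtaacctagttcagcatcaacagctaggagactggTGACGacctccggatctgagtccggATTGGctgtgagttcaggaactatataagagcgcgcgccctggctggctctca
H2-Aa (chr17:34287824-34288073, minus strand): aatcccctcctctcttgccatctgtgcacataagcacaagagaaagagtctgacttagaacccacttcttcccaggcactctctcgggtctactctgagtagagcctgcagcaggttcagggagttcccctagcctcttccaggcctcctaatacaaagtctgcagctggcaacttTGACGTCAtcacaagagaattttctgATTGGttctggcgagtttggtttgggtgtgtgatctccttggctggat
H2-Oa (chr17:34092129-34092378, plus strand): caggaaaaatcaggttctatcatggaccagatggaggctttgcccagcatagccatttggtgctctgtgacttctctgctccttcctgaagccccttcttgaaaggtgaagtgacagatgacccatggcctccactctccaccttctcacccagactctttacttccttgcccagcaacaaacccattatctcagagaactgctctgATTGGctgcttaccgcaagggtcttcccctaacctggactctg

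The H2-K1 and H2-D1 windows were 87.4% identical over 190 aligned bases and held the same 4 motifs in the same order. The kappaB-type motif began 111 bases before the start of H2-K1 and 171 before that of H2-D1. It was present in 10 of 32851 RefSeq windows (0.0304%), and among the 26 members with a window only these 2 genes had it. The interferon element was in 0.402% of all windows and in 5 member windows, those of H2-K1, H2-D1, H2-M3, H2-Q4 and H2-Q7. The CRE core was in 17.8% of all windows and in 11 of the 26, and the inverted CCAAT in 33.8% and in 23. In H2-Aa the CRE core matched on both strands with an overlap. Distances are from the RefSeq starts, which are not the outermost GENCODE coordinates given for genes below: the H2-D1 window lies inside the GENCODE gene, and those of H2-Oa and, by 1 base, B2m reach past its start. A match describes these letters only.

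**Figure D1:**
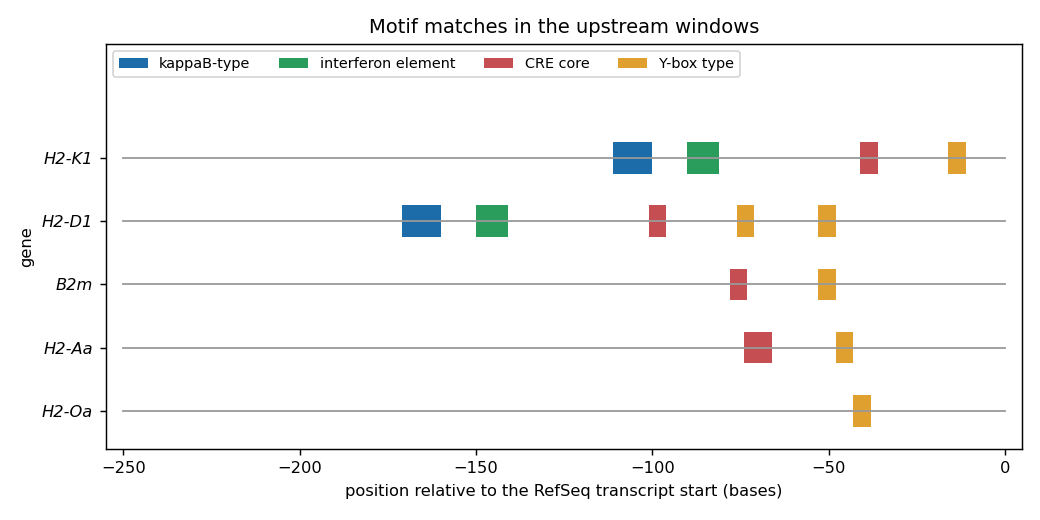
Motif matches (coloured blocks) along 250 bases before the RefSeq transcript start (horizontal axis, bases) of 5 genes (vertical axis). H2-K1 and H2-D1 share the order of 4 motifs, offset along the axis, while the kappaB-type and interferon elements are in neither class II window.

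Library depth is not listed in the table and was estimated from the steps between FPKM values as 8950000 to 12750000 fragments. At these totals 3 fragments on a transcript of 1500 bases correspond to an FPKM of 0.162 to 0.231. The skin library had 5675 genes with an FPKM of at least 1, against 8270 to 8754 in the other libraries, and most genes had lower values in it. Some genes that cells in general use were listed at exactly 0 in skin, such as the proteasome subunit gene Psmb6 (16.48 FPKM in limb MCPs at E14.5), so a value of 0 there means only that the gene was listed at 0. The mast cell markers summed to 293, 603, 2907 and 15065 FPKM along liver MCPs, limb MCPs (E11.5, then E14.5) and skin, with 21.5 in the MAC library and 57.1 in EMPs. The MAC library held macrophage markers (sum 87.7 FPKM, with Csf1r at 34.1 and Adgre1 at 18.4) beside far larger sums of eosinophil (9877) and neutrophil (5146) markers, so it is called by its label here. The neutrophil sum was higher still in EMPs (9446, with Mpo at 8174), and eosinophil markers summed to 243 there. Single neutrophil markers were split: Ngp (693.2 against 18.15 FPKM) and Ltf (73.2 against 1.38) were higher in the MAC library than in EMPs. Mpo (3621 in the MAC library), Elane and Ctsg were higher in EMPs. Changes in the share of a cell type and in RNA per cell cannot be told apart in bulk libraries.

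Of the 37 genes, 20 reached an FPKM of 1 in at least 1 library and 14 were above 0 in all 6. The 17 others stayed at or below 0.84 FPKM. They were Ciita, H2-Eb1, H2-Eb2, the pseudogene H2-Ea-ps, H2-Ob, and 12 non-classical class I genes (H2-Bl, H2-M5, H2-M9, H2-M10.2, H2-M10.3, H2-M10.4, H2-M10.5, H2-Q1, H2-Q2, H2-Q7, H2-Q9 and H2-T3). Class I paralogs share reads. Of the 50-base stretches in the annotated transcripts, 7.98% of those of H2-K1 and 10.9% of those of H2-D1 also occurred in another member, against 0% for H2-Aa, H2-Ab1 and H2-Oa, and 22.7% for H2-DMb1. Only exact matches count, all annotated transcripts of a gene are pooled, and H2-Q9 and H2-T9 were not included. These shares may thus understate the sharing of reads.

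**Figure D2:**
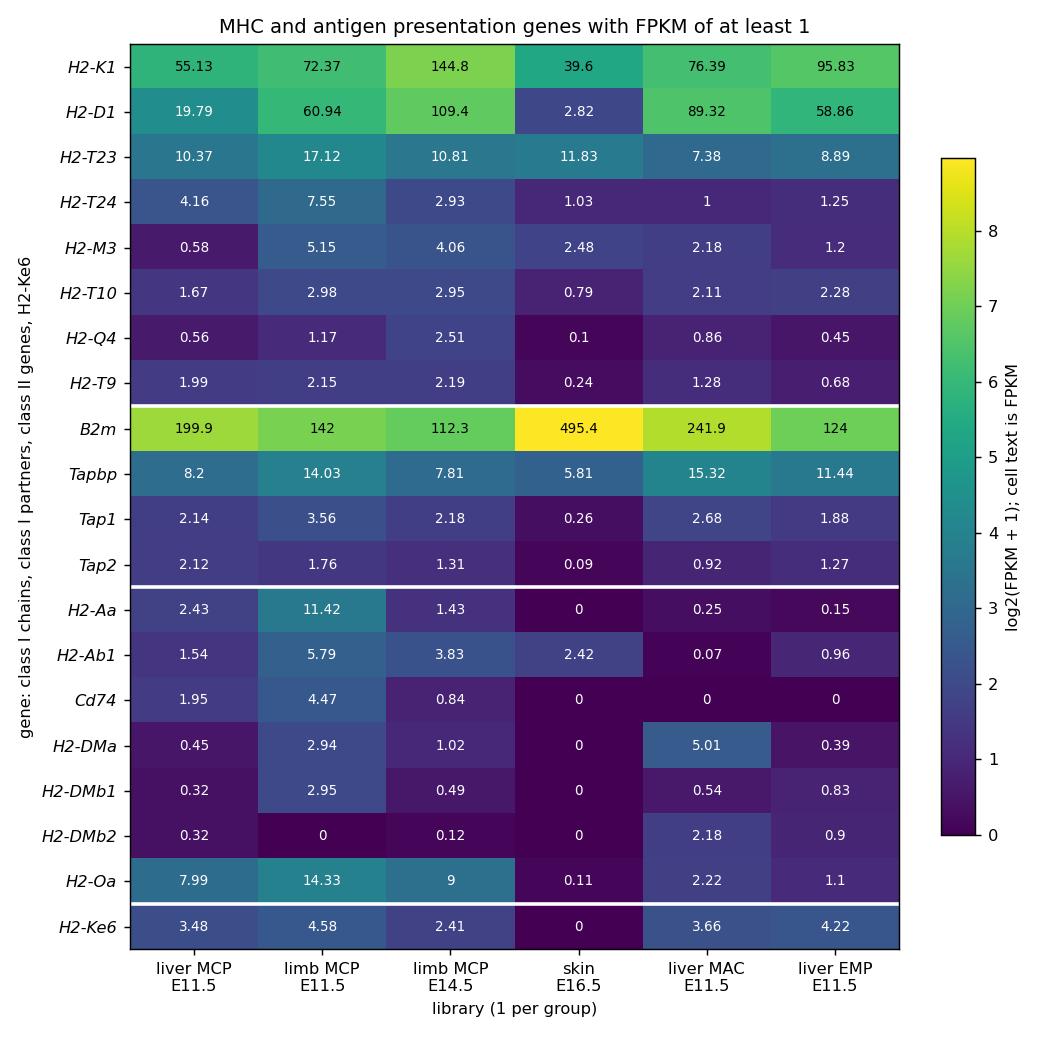
FPKM (cell text) and log2(FPKM + 1) (colour) of the 20 genes that reached 1 FPKM somewhere, in the 6 libraries (columns), grouped as class I chains, class I partners, class II genes and H2-Ke6 (rows). B2m is highest in skin (495), H2-Aa and Cd74 in limb MCPs at E11.5 (11.4 and 4.47).

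Class I exceeded class II in every library by summed level. The 20 class I heavy chains summed to 95.2, 172, 280 and 59.8 FPKM in liver MCPs, limb MCPs (E11.5, then E14.5) and skin, to 181 in the MAC library and to 170 in EMPs. The 10 class II chains summed to 13.6, 37.9, 16.2 and 2.57 FPKM in the same mast lineage libraries, to 10.3 in the MAC library and to 4.63 in EMPs. The class I sum was therefore 4.52 times the class II sum in limb MCPs at E11.5, the narrowest gap. It was 36.7 times in EMPs, the widest by these sums. It was 7.01 times in liver MCPs, 17.3 times in limb MCPs at E14.5, 23.3 times in skin and 17.6 times in the MAC library. On the log2 scale the limb E11.5 ratio was 2.18, with a counting interval of 2.02 to 2.33 (95%, exact binomial on implied fragments), and that of EMPs was 5.20 (4.87 to 5.55). These intervals cover counting error only. Taken as a mean of log2(FPKM + 1) over members instead of a sum, the class I lead in limb MCPs at E11.5 was absent (−0.030). With that mean the widest gap was in skin, just ahead of EMPs. With H2-K1 and H2-D1 against H2-Aa, H2-Ab1 and H2-Eb1 only, it was in the MAC library (165.71 against 0.32 FPKM). EMPs then had 154.69 against 1.35 FPKM.

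**Figure D3:**
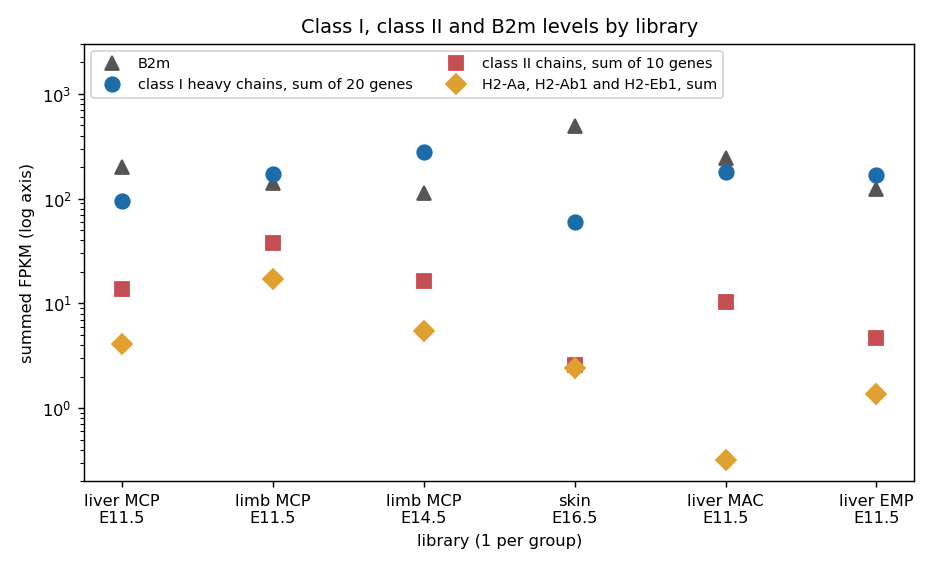
FPKM of B2m, of the class I heavy chains summed, of the class II chains summed, and of H2-Aa, H2-Ab1 and H2-Eb1 summed (vertical, log axis) in each of the 6 libraries (horizontal). Class II is closest to class I in limb MCPs at E11.5 (37.9 against 172), and the H2-Aa, H2-Ab1 and H2-Eb1 sum is lowest in the MAC library (0.32).

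H2-K1 and H2-D1, the classical heavy chains of the C57BL/6 haplotype, made up 70.9% to 91.6% of the class I sum. H2-K1 (chromosome 17, 33996017 to 34000347, minus strand) read 55.1, 72.4, 145 and 39.6 FPKM along liver MCPs, limb MCPs (E11.5, then E14.5) and skin, 76.4 in the MAC library and 95.8 in EMPs. H2-D1 (chromosome 17, 35262730 to 35267499, plus strand) read 19.8, 60.9, 109 and 2.82 FPKM in those mast lineage libraries, 89.3 in the MAC library and 58.9 in EMPs. Both were highest in limb MCPs at E14.5, also with equal sums and with median-of-ratios scaling. H2-D1 was lowest in skin under all 3 scalings, but H2-K1 only on deposited FPKM: with equal sums it was lowest in liver MCPs (360 against 471 in skin), as with median-of-ratios scaling (43.2 against 89.5). They did not keep a fixed ratio: H2-K1 was 14.04 times H2-D1 in skin and 2.79 times in liver MCPs, but 0.855 times in the MAC library and 1.19 to 1.63 times in the other libraries. The part of the mixed C57BL/6 and FVB background in this ratio was not tested. The value of 2.82 in skin corresponds to about 54 fragments (counting interval 2.10 to 3.65 FPKM).

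Non-classical heavy chains were led by H2-T23, which encodes Qa-1, the ligand of inhibitory NKG2A receptors. It read 10.4, 17.1, 10.8 and 11.8 FPKM along the mast lineage libraries, 7.38 in the MAC library and 8.89 in EMPs. Its highest library was limb MCPs at E11.5 on deposited FPKM, but skin with equal sums and with median-of-ratios scaling. H2-T24 read 4.16, 7.55, 2.93 and 1.03 FPKM along the mast lineage libraries, 1 in the MAC library and 1.25 in EMPs. H2-M3, which presents N-formylated bacterial peptides, read 0.58, 5.15, 4.06 and 2.48 FPKM there, 2.18 in the MAC library and 1.2 in EMPs. It was lowest in liver MCPs, and highest in limb MCPs at E11.5 except with median-of-ratios scaling, where skin was highest (5.61 against 4.37). H2-T10, H2-T9 and H2-Q4 ranged from 0.79 to 2.98, 0.24 to 2.19 and 0.10 to 2.51 FPKM, each lowest in skin, which with median-of-ratios scaling held for H2-Q4 only. H2-T23 and H2-T24 overlap an annotated antisense transcript, and the counting is not stated to use strand.

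B2m (chromosome 2, 122147686 to 122153083, plus strand) was not proportional to the heavy chains. It read 200, 142, 112 and 495 FPKM in liver MCPs, limb MCPs (E11.5, then E14.5) and skin, 242 in the MAC library and 124 in EMPs. B2m was highest in skin and the heavy chain sum in limb MCPs at E14.5 under all 3 scalings. The low ends depended on the scaling. On deposited FPKM the heavy chain sum was lowest in skin and B2m in limb MCPs at E14.5. With equal sums the heavy chain sum was lowest in liver MCPs (621, against 711 in skin) and B2m in EMPs (732, against 752 in limb MCPs at E14.5). Its ratio to the class I sum was 8.29 in skin, 2.10 in liver MCPs and 0.401 in limb MCPs at E14.5, a comparison inside each library that does not move with library scaling. Tapbp read 8.2, 14.03, 7.81 and 5.81 FPKM along the mast lineage libraries, 15.3 in the MAC library and 11.4 in EMPs. Tap1 read 2.14, 3.56, 2.18 and 0.26 FPKM there, 2.68 in the MAC library and 1.88 in EMPs. Tap2 read 2.12, 1.76, 1.31 and 0.09 FPKM there, 0.92 in the MAC library and 1.27 in EMPs. The peptide pump genes were thus lowest in skin, the library with the highest B2m, with about 7 and 3 fragments behind the skin values. Tap1 overlaps 212 bases of Psmb9 on the other strand, B2m lies across from Patl2 (at most 0.09 FPKM), and Tapbp overlaps Zbtb22 (1.13 to 3.97 FPKM). H2-Ke6, the enzyme gene of the region, read 3.48, 4.58, 2.41 and 0 FPKM along the mast lineage libraries, 3.66 in the MAC library and 4.22 in EMPs.

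Among class II genes, H2-Oa, the alpha chain of the DM inhibitor, had the highest FPKM in liver MCPs, both limb MCP libraries and EMPs, and stood above H2-Aa in each of the 6 libraries. In EMPs its lead over H2-Ab1 (1.10 against 0.96 FPKM) rests on about 15 fragments. H2-Oa (chromosome 17, 34092340 to 34095234, plus strand) read 7.99, 14.3, 9 and 0.11 FPKM along liver MCPs, limb MCPs (E11.5, then E14.5) and skin, 2.22 in the MAC library and 1.10 in EMPs. The liver and limb MCP libraries were above the MAC library and EMPs, and skin was lowest with about 1 fragment. H2-Ob, the beta chain that completes the H2-O dimer, stayed at or below 0.10 FPKM in all 6 libraries. An antisense transcript is annotated across the whole of H2-Oa and has no row in the table, so without stated strand use the H2-Oa value cannot be divided between them.

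H2-Aa, H2-Ab1 and the invariant chain gene Cd74 each had their highest level in limb MCPs at E11.5. With median-of-ratios scaling this held for H2-Aa and Cd74, while H2-Ab1 was highest in skin (5.47 against 4.91). H2-Aa (chromosome 17, 34282744 to 34287823, minus strand) read 2.43, 11.4, 1.43 and 0 FPKM along the mast lineage libraries, 0.25 in the MAC library and 0.15 in EMPs. About 110 fragments lay behind the limb E11.5 value (counting interval 9.37 to 13.7 FPKM), and about 32 and 18 behind those of liver MCPs and limb MCPs at E14.5. H2-Ab1 (chromosome 17, 34257689 to 34269419, plus strand) read 1.54, 5.79, 3.83 and 2.42 FPKM along the mast lineage libraries, 0.07 in the MAC library and 0.96 in EMPs. Of the pair that forms the I-A molecule, the beta chain was thus still listed in skin while the alpha chain was listed at 0. Cd74 read 1.95, 4.47 and 0.84 FPKM in liver MCPs and in limb MCPs of E11.5 and E14.5, and was listed at 0 in skin, the MAC library and EMPs. H2-Eb1, the beta chain of I-E, did not exceed 0.24 FPKM. Its partner gene is defective in the C57BL/6 haplotype, and H2-Ea-ps reached 0.30 FPKM at most. Ciita, the class II transactivator, stood between 0 and 0.06 FPKM in all 6 libraries, with at most about 4 fragments, also where H2-Aa was highest.

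The peptide editor H2-DM had another pattern. H2-DMa read 0.45, 2.94, 1.02 and 0 FPKM along the mast lineage libraries, 5.01 in the MAC library and 0.39 in EMPs. H2-DMb1 read 0.32, 2.95, 0.49 and 0 FPKM there, 0.54 in the MAC library and 0.83 in EMPs. H2-DMb2 read 0.32, 0, 0.12 and 0 FPKM there, 2.18 in the MAC library and 0.90 in EMPs. H2-DMa and H2-DMb2 were highest in the MAC library, and H2-DMb1 in limb MCPs at E11.5, where H2-DMb2 was listed at 0. These beta chain genes share 22.7% of the 50-base stretches of H2-DMb1, so their split is uncertain. H2-DMa overlaps Brd2 on the other strand, which read 0.31 to 0.88 FPKM outside skin and 0.48 in the MAC library. In the MAC library, where H2-DMa was highest, H2-Aa, H2-Ab1 and H2-Eb1 summed to 0.32 FPKM, against 17.3 in limb MCPs at E11.5.

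Dendritic cells, B cells and macrophages are the usual class II-positive cells, and their markers are given here beside the class II values. The 9 dendritic cell markers summed to 6.92, 4.07, 0.42 and 0.09 FPKM along the mast lineage libraries, 1.86 in the MAC library and 3.30 in EMPs. In limb MCPs at E11.5 the dendritic cell genes Flt3, Itgax, Zbtb46 and Clec9a read 1.04, 0.89, 0.28 and 0.47 FPKM, Cd209a was at 0 and Xcr1 at 0.04. Of these, Clec9a had its highest value there. The 9 macrophage markers summed to 8.78, 8.21, 2.10 and 14.8 FPKM along the mast lineage libraries, the last mostly Cd68 (14.6), and C1qb read 1.22 in limb MCPs at E11.5. The 5 B cell markers in the table, out of 6 listed, summed to 6.55, 6.32, 2.58 and 0.27 FPKM there, with 8.74 in the MAC library and 7.94 in EMPs. That sum was mostly Cd79b (6.03, 3.42, 1.82 and 0.19 FPKM along the mast lineage libraries). In limb MCPs at E11.5 Cd79a (2.55) and Cd22 (0.35) had their highest values, while Pax5 and Ms4a1 were listed at 0. The part of these cells in the class II values was not tested.

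In the comparisons below a call stands for a 2-fold difference, 1 unit of log2(FPKM + 1), in a gene that reached 5 FPKM in either library. Of the 37 members, 26 never reached 5 FPKM and could not be called in any comparison. A member that passed this level in only 1 library of a pair could be called only as higher in that library. The counts are therefore set beside all genes under the same rule, and nothing more is read from them.

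The comparison of liver MCPs with the EMPs of the same organ asks which of these genes differ at the entry to the mast cell lineage. H2-Oa was called higher (7.99 in liver MCPs against 1.10 FPKM in EMPs, 7.26 times, log2 difference 2.10). H2-D1 was called lower (19.8 against 58.9 FPKM, log2 −1.53). H2-K1 read 55.1 against 95.8 FPKM (−0.79) and B2m 200 against 124 (0.69), neither past the rule. Thus 2 of the 6 members that passed the level filter were called, beside 22.8% of 5463 genes (8.48% higher and 14.3% lower). The median difference was −0.12 over those members and −0.15 over all genes. H2-Oa passed the filter only through liver MCPs, so its difference could only be positive. Below the filter, H2-Aa read 2.43 in liver MCPs against 0.15 FPKM in EMPs, and Cd74 1.95 while EMPs listed it at 0. Neutrophil markers summed to 913 FPKM in liver MCPs against 9446 in EMPs, mostly Mpo (878 against 8174). Elane and Ctsg were called lower too, while Ngp read 17.7 against 18.15 FPKM and Ltf 0.81 against 1.38. Erythroid markers summed to 175 against 36.1 FPKM and mast cell markers to 293 against 57.1. Their part in these differences was not tested.

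The MAC library against EMPs differed in H2-DMa, which was called higher (5.01 against 0.39 FPKM, 12.8 times, log2 difference 2.11). It was the only call among 6 members that passed the filter, beside 16% of 5200 genes (5.42% higher and 10.6% lower). The median was 0.49 over those members and −0.27 over all genes. H2-DMa passed the filter only through the MAC library, so its difference could only be positive, which also bears on that median. With a pseudocount of 5, H2-DMa lost its call (0.89). This comparison uses the same EMP library as the one before it. B2m read 242 in the MAC library against 124 FPKM in EMPs (0.96), just under the rule, and was called higher with equal sums (1.03) and with median-of-ratios scaling (1.26). H2-D1 read 89.3 against 58.9 FPKM (0.59) and H2-K1 76.4 against 95.8 (−0.32). Macrophage markers summed to 87.7 FPKM in the MAC library against 23.7 in EMPs, eosinophil markers to 9877 against 243 and neutrophil markers to 5146 against 9446. Of the neutrophil markers, Ngp and Ltf were called higher in the MAC library, and Mpo and Ctsg lower. The part of these cells in the H2-DMa value was not tested.

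Liver MCPs against the MAC library gave 3 calls among 7 members that passed the filter, beside 31.4% of 5317 genes (17.3% higher and 14.1% lower). H2-Oa was higher in liver MCPs (7.99 against 2.22 FPKM, log2 1.48). H2-D1 (19.8 against 89.3 FPKM, −2.12) and H2-DMa (0.45 against 5.01 FPKM, −2.05) were lower. H2-Oa passed the filter only through liver MCPs and H2-DMa only through the MAC library, which fixed the sign of each difference. Of the chains below the filter, H2-Aa and H2-Ab1 read 2.43 and 1.54 FPKM in liver MCPs against 0.25 and 0.07 FPKM in the MAC library. This comparison shares the liver MCP library with the first and the MAC library with the second, so their values are not independent.

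Between limb and liver MCPs, both of E11.5, the question is what differs by tissue. Genes of both classes were called higher in the limb. H2-Aa (11.4 in limb against 2.43 FPKM in liver, 4.70 times, log2 1.86) and H2-Ab1 (5.79 against 1.54 FPKM, 1.42) were called higher on the class II side, and H2-D1 (60.9 against 19.8 FPKM, 1.57) and H2-M3 (5.15 against 0.58 FPKM, 1.96) on the class I side. These 4 of 10 members that passed the filter compare with 21.2% of 5153 genes called, 7.65% higher and 13.6% lower. No member was called lower. The median difference was 0.75 over those members and −0.14 over all genes. H2-Aa, H2-Ab1, H2-M3 and H2-T24 passed the filter only through the limb library, so their differences could only be positive, which also bears on that median. With a pseudocount of 5, H2-Ab1 (0.72) and H2-M3 (0.86) lost their calls. H2-Oa (0.77), H2-T24 (0.73), Tapbp (0.71), H2-T23 (0.67) and H2-K1 (0.39) also had positive differences without passing the rule. B2m alone of the 10 had a negative one (142 in limb against 200 FPKM in liver, −0.49). Below the filter class II genes went both ways. Cd74 read 4.47 in limb against 1.95 FPKM in liver, H2-DMa 2.94 against 0.45 and H2-DMb1 2.95 against 0.32, while H2-DMb2 was listed at 0 in limb against 0.32 in liver and H2-Eb2 read 0.14 against 0.34. Neutrophil markers summed to 440 FPKM in the limb against 913 in the liver, mostly Mpo (417 against 878). Ngp was called lower too (6.86 against 17.7 FPKM), while Elane read 15.1 against 14.7. Erythroid markers summed to 11.52 FPKM in the limb against 175 in the liver, and mast cell markers to 603 against 293. Their part in these differences was not tested.

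The limb MCPs of E14.5 were compared with those of E11.5 for change with age in 1 tissue. H2-Aa was called lower (1.43 at E14.5 against 11.4 FPKM at E11.5, log2 −2.35), as was the non-classical gene H2-T24 (2.93 against 7.55 FPKM, −1.12). H2-K1 read 145 at E14.5 against 72.4 FPKM at E11.5 (0.99) and H2-D1 109 against 60.9 FPKM (0.83), both short of the rule. The 2 calls among 10 members that passed the filter compare with 16.2% of 5034 genes, 9.14% higher and 7.01% lower. The median was −0.55 over those members and 0.08 over all genes. H2-Aa, H2-Ab1, H2-M3 and H2-T24 passed the filter only through the E11.5 library, so their differences could only be negative. Cd74 (0.84 at E14.5 against 4.47 FPKM at E11.5) and H2-DMb1 (0.49 against 2.95 FPKM) were below the filter and also lower, while H2-Ab1 differed less (3.83 against 5.79 FPKM, −0.49). Mast cell markers summed to 2907 FPKM at E14.5 against 603 at E11.5, and eosinophil markers to 0.03 against 91.9. Dendritic cell markers summed to 0.42 FPKM at E14.5 against 4.07 at E11.5, and neutrophil markers to 1.92 against 440. Connective tissue markers summed to 42.1 against 0.44. Their part in these differences was not tested.

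Skin at E16.5 against limb MCPs at E14.5 differs in tissue and age at once. B2m was called higher (495 in skin against 112 FPKM in limb, 4.41 times, log2 2.13), and H2-D1 (2.82 against 109 FPKM, −4.85), H2-Oa (0.11 against 9 FPKM, −3.17) and H2-K1 (39.6 against 145 FPKM, −1.84) were called lower. Here 66.6% of 4679 genes were called, 5.09% higher and 61.5% lower, with a median of −1.36 over all genes, so a lower call was the common case in skin. Of the 6 members that passed the filter 4 were called, and their median was −1.11. H2-D1 and H2-Oa passed it only through the limb library, so their differences could only be negative. With median-of-ratios scaling the median of all genes was −0.12, H2-K1 lost its call (−0.41), H2-D1 stayed at −3.62 and B2m stood at 3.59. H2-T23 read 11.8 in skin against 10.8 FPKM in limb (0.12). Under median-of-ratios scaling it was called higher (1.49). Among genes below the filter, H2-Ab1 read 2.42 in skin against 3.83 FPKM in limb, and the sign of this difference turned from −0.50 to 0.16 with equal sums and to 0.64 with median-of-ratios scaling. Mast cell markers summed to 15065 FPKM in skin against 2907 in limb. Connective tissue markers summed to 9.04 FPKM in skin against 42.1 in limb, with Col1a1 and Col1a2 called lower. The macrophage marker Cd68 (14.6 against 1.51 FPKM) and the protease gene Ctsg (6.93 against 0.18 FPKM), listed with the neutrophil markers, were called higher. Their part in these differences was not tested.

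**Figure D4:**
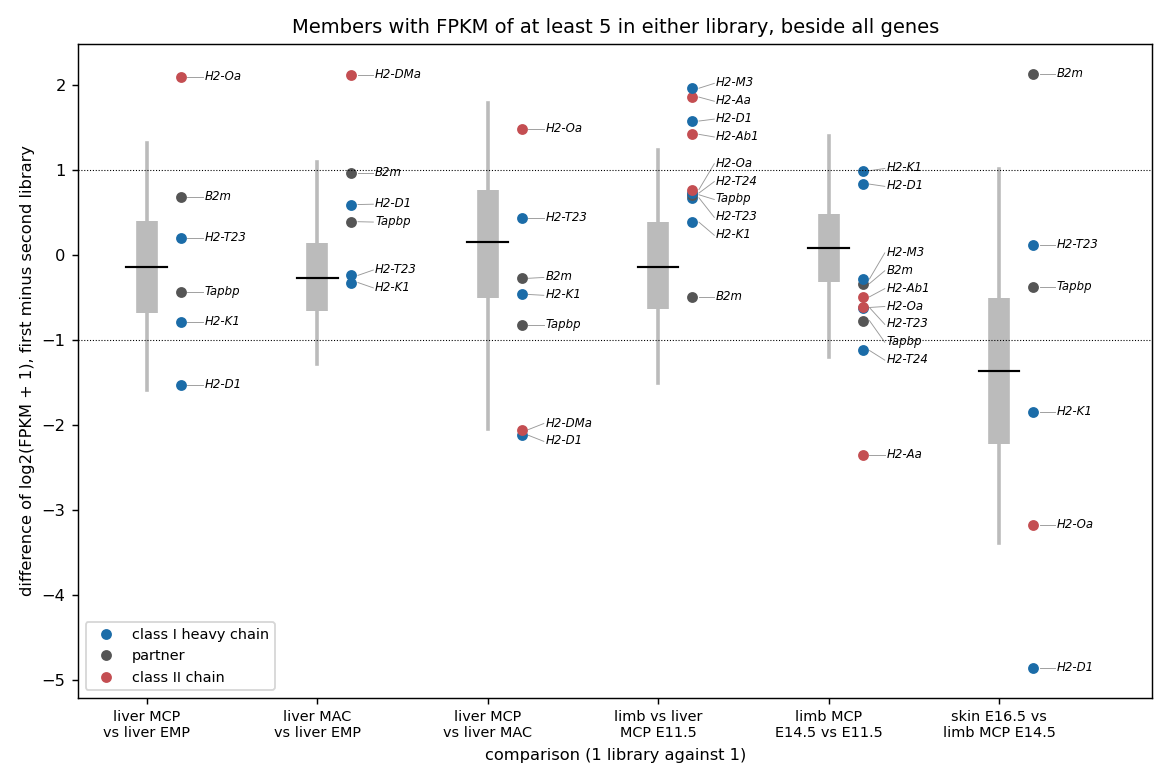
Differences of log2(FPKM + 1), first library minus second (vertical axis), in the 6 comparisons (horizontal axis), for members that passed the level filter (points, coloured by class) beside all genes (grey, with the median in black, the quartiles as a box and percentiles 5 and 95 as a line). The dotted lines mark the 2-fold rule. Skin is the comparison whose grey box lies below −0.5, with B2m above it at 2.13 and H2-D1 below it at −4.85.

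The 5 genes of the immunoproteasome and its activator had no call in any of the 5 comparisons outside skin, in which 16% to 31.4% of all genes were called. With equal sums Psmb8 was called higher in liver MCPs against EMPs, and Psmb9 lower in limb MCPs at the later age. In skin 5 of 5 were called lower than in limb MCPs at E14.5 (median −2.00), where 61.5% of all genes were. With equal sums 4 were called lower there, and with median-of-ratios scaling 2, Psmb9 and Psmb10. Psmb9, a catalytic subunit encoded beside Tap1, read 13.3, 12.1, 6.20 and 0.28 FPKM along the mast lineage libraries, 11.3 in the MAC library and 8.25 in EMPs. Psmb8 read 15.4, 18.7, 13.2 and 2.81 FPKM there, 8.59 in the MAC library and 7.90 in EMPs. The constitutive subunits Psmb5, Psmb6 and Psmb7 were called lower in skin as well, 3 of 3, with Psmb6 listed at 0. With median-of-ratios scaling Psmb5 and Psmb6 kept the call. Psmb6 was also called lower in the MAC library against EMPs and in limb against liver MCPs at E11.5, and higher in liver MCPs against the MAC library. Among 6 loading and trimming genes, Calr, a chaperone of the loading complex, was called lower in 3 comparisons: the MAC library against EMPs (162 against 420 FPKM), limb against liver MCPs at E11.5 (50.6 against 222 FPKM), and skin against limb MCPs at E14.5 (31.6 against 81.5 FPKM). The call in skin was lost under both other scalings. No other gene of that list was called in any comparison on deposited FPKM. Pdia3, which acts with it, stayed between 64.4 and 107 FPKM, and was called higher in skin with median-of-ratios scaling.

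Of 6 endosomal processing genes, Ctss, Ifi30 and Ctsb reached their highest deposited levels, over 30 FPKM, in the MAC library. Ctss, the cathepsin that trims the invariant chain, read 2.94, 3.09, 0.26 and 0.16 FPKM along the mast lineage libraries, 30.8 in the MAC library and 1.32 in EMPs. Ifi30, the lysosomal thiol reductase, read 9.85, 12.6, 10.9 and 1.24 FPKM there, 32.98 in the MAC library and 4.87 in EMPs. H2-DMa was also highest in the MAC library, while Cd74 was listed at 0 there. In the MAC library against EMPs 2 of the 5 genes that passed the filter were called higher, Ctss and Ifi30, where 5.42% of all genes were. In liver MCPs against EMPs 1 of 4 was, Ctsl (22.2 against 6.41 FPKM), where 8.48% were. In liver MCPs against the MAC library Ctsl was called higher, and Ctss, Ifi30 and Ctsb lower. There 17.3% of all genes were called higher and 14.1% lower. Ctsl was called lower in limb MCPs at E14.5 (5.09 FPKM) against E11.5 (15.3 FPKM), where 7.01% of all genes were. None of the 4 genes that passed the filter was called between limb and liver MCPs at E11.5, where 21.2% of all genes were. Ctsd, an aspartic protease of lysosomes, read 214 FPKM in skin against 90.7 in limb MCPs at E14.5. Ctsd was called higher in skin, where 5.09% of all genes were, while Ctsl and Ifi30 were called lower, where 61.5% were. With median-of-ratios scaling Ctsl lost that call.

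Of 16 listed genes for MHC transcription and its interferon gamma input, 0 of the 9 that passed the filter were called higher between limb and liver MCPs at E11.5, and 1 was called lower, Nfyb (1.71 in limb against 6.42 FPKM in liver), a subunit of the Y box factor NF-Y. There 21.2% of all genes were called. Rfx5 and Rfxap, subunits of the X box factor, read 4.16 and 4.76 FPKM in limb MCPs at E11.5 against 1.40 and 4.04 FPKM in liver MCPs. Irf8 was called lower in liver MCPs both against EMPs (3.15 against 12 FPKM) and against the MAC library (23.5 FPKM), as was Spi1 (15.4 in liver MCPs, 99.1 in the MAC library and 108 in EMPs). Ifngr1, a chain of the interferon gamma receptor, read 33.3, 20.5, 7.03 and 4.60 FPKM along the mast lineage libraries, 44.7 in the MAC library and 40.9 in EMPs. It was called lower in limb MCPs at E14.5 than at E11.5, as was Nfkb1, an NF-kappaB subunit that was listed at 0 at E14.5 against 5.22 FPKM at E11.5.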

How the data were processed

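The authors deposited 1 table of FPKM values with 2 decimals for 6 libraries. Per the submitters' processing notes, Bowtie2, RSEM and the build mm10 (GRCm38) were used. Tool versions, annotation and strand use are not given in the sources consulted. Per the labels' protocols, total RNA was extracted with TRIzol and sequenced on the Illumina HiSeq platform. Of 17913 rows, 4 with a repeated name were dropped. Groups came from the labels. Differences are of log2(FPKM + 1), with a call from a difference of 1 upward where either library reached 5 FPKM, and fold values are ratios of FPKM. No test was run, because each group had 1 library. The method for depth was chosen after seeing the data: it sought the total that brought 1409 genes with a single transcript of 600 to 2500 bases (length less 50) closest to whole fragments. At that total 71.7% to 75.9% of usable values came within 0.2 of whole fragments, where chance gives 40% at 1 fixed total. The total was chosen for the largest such share, so 40% understates what chance would give at the best total. Implied fragments used the principal GENCODE M21 transcript, with exact Poisson intervals (95%) for counting error only. The reference carries the C57BL/6 haplotype of the MHC, and reads of an FVB haplotype may map to it less well, which was not tested. The named genes are all members of the rule, with all 6 values for those that reached 1 FPKM, and the listed pathway genes with the largest differences. Other pathway genes, such as Rfx5, Rfxap, Pdia3, Cd1d1, Cd86 and Cd274, were chosen after their values were seen. Of the pathway lists, 1 gene is not reported here. Members, lists and thresholds were chosen with earlier results of these data known. Alternatives were pseudocounts of 0.1 and 5, no level filter, a filter of 10, equal sums (TPM), median-of-ratios scaling over 8774 genes, and leaving out genes listed at 0. Scalings of the pathway lists and of the rank of libraries were added after seeing the data. With equal sums and median-of-ratios scaling the level filter stayed on the deposited FPKM. Scripts used Python 3.11.15, numpy 2.4.6, pandas 2.3.3, scipy 1.17.1 and matplotlib 3.10.9.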

Additional observations from a re-analysis of the deposited data

How the results depend on the processing

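The number of members called at 2-fold is small. It moved by more than 1.5 times mostly under the filters and a pseudocount of 5, and in no comparison with a pseudocount of 0.1 or without genes listed at 0. Without a level filter it was 5 for liver MCPs against EMPs, 9 for liver MCPs against the MAC library, 4 for E14.5 against E11.5 limb MCPs and 12 for skin against limb, in place of 2, 3, 2 and 4. With a filter of 10 FPKM it was 1, 0, 1, 2 and 1 for the first 5 comparisons, in place of 2, 1, 3, 4 and 2. With a pseudocount of 5 it was 0 for the MAC library against EMPs, 1 for liver MCPs against the MAC library, 2 for limb against liver MCPs and 1 for E14.5 against E11.5 limb MCPs. With equal sums (TPM) and with median-of-ratios scaling it was 2 each for the MAC library against EMPs, where B2m joined H2-DMa. The filters change how many members can be called, and for the pseudocount and the scalings the cause was not tested. The log2 class I to class II ratio with H2-K1 and H2-D1 against H2-Aa, H2-Ab1 and H2-Eb1 only was 4.18 in liver MCPs, 2.95 in limb MCPs at E11.5, 5.54 in limb MCPs at E14.5, 9.02 in the MAC library and 6.84 in EMPs, in place of 2.81, 2.18, 4.11, 4.14 and 5.20. As a difference of mean log2(FPKM + 1) it was 0.25 in liver MCPs, −0.030 in limb MCPs at E11.5, where the sign reversed, 0.50 in limb MCPs at E14.5, 0.61 in skin, 0.45 in the MAC library and 0.60 in EMPs. The widest gap was thus in the MAC library with those chains only, and in skin, just ahead of EMPs, with the mean. Of 480 values of single members under the pseudocounts and scalings, 7 lost a call, 4 gained one and 0 called values changed sign. Scaling by median of ratios moved the median of all genes in skin against limb from −1.36 to −0.12, and the share of calls that were lower from 92.4% to 56.7% (77.5% with equal sums). In the MAC library against EMPs it moved the median from −0.27 to 0.01 and that share from 66.2% to 38.5%. In liver MCPs against the MAC library the median moved from 0.16 to −0.09 and the share from 44.9% to 61.8%. Limb MCPs at E11.5 against liver MCPs had a lower share of 64.0%, and of 51.9% with equal sums and 53.2% with median-of-ratios scaling. Liver MCPs against EMPs had 62.8% and 51.7% with equal sums. No paired analysis was possible because each group had 1 library, and leaving out the skin or MAC library leaves none in its group. Depth limits the members of both classes under 1 FPKM, since 3 fragments on 1500 bases equal 0.162 to 0.231 FPKM.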

Other observations

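MHC-like genes outside the H2 prefix, co-stimulatory ligands and interferon response genes were low in all 6 libraries. Of 9 MHC-like genes only Ulbp1, a ligand of the activating receptor NKG2D, reached 5 FPKM, at 5.32 in limb MCPs at E14.5. It read 2.38, 2.16, 5.32 and 0 FPKM in liver MCPs, limb MCPs (E11.5, then E14.5) and skin, 3.31 in the MAC library and 1.05 in EMPs. Cd1d1, which presents lipids, read 2.40, 2.53, 1.41 and 0 FPKM along the mast lineage libraries, 2.25 in the MAC library and 1.33 in EMPs. Of 9 co-stimulatory and checkpoint ligands only Icam1, an adhesion ligand of T cells, reached 5 FPKM, at 6.75 in limb MCPs at E11.5, against 3.19 in liver MCPs. Cd40, Cd83 and Tnfsf4 did not exceed 0.08 FPKM and Cd80 did not exceed 0.48. Cd86 read 0.67, 1.32, 0.35 and 0.29 FPKM along the mast lineage libraries, 1.45 in the MAC library and 0.16 in EMPs. Cd274, which encodes PD-L1, read 1.61, 1.69, 1.07 and 1.47 FPKM there, 0.10 in the MAC library and 0.28 in EMPs.

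The 13 interferon response genes summed to 15.4, 11.3, 4.75 and 5.53 FPKM along the mast lineage libraries, 15.4 in the MAC library and 6.6 in EMPs. Only Igtp, an interferon-inducible GTPase, reached 5 FPKM, at 5.21 in liver MCPs against 1.76 in EMPs, and it was called higher there. Limb MCPs at E14.5, the library with the highest class I sum (280 FPKM), had the lowest sum of these genes but the highest value of Isg15 (0.96 FPKM). All of these genes but Igtp and Irgm1 were under 1 FPKM in that library, so its sum rests on low values. A link between these genes and the class I level was not tested.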
